A study of Mus musculus with 10 samples.

Results

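Immediate-early genes are the transcripts that a cell makes within minutes of a stimulus, from transcription machinery that is already in place and without new protein synthesis. Growth factors, the RAS and ERK kinase cascade, calcium and cAMP signals, and stresses such as the handling of tissue all induce them. Serum response factor on CArG boxes and CREB on cAMP response elements are their best known activators. Described here are 10 such genes of the mouse lung tumour transcriptome, out of 39017 genes in the count table: the zinc-finger transcription factors Egr1, Egr2 and Egr3, the orphan nuclear receptor Nr4a1, the immediate-early response genes Ier2, Ier3 and Ier5, and the growth arrest and DNA damage inducible genes Gadd45a, Gadd45b and Gadd45g. Each symbol matched 1 row of the table and all 10 passed the filter on low counts. These genes were chosen by their values in the Control and Glut1KO libraries compared below, so for them this comparison is a description and carries no test.

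RNA was sequenced from 10 CD45-negative fractions of lung tumours of C57BL/6 mice, of which 5 were labelled Control and 5 Glut1KO. The methods describe tumours dissociated into single cells and immune cells removed with magnetic beads before such RNA was extracted. Levels here are those after this handling, and its part in them was not tested. In both groups tumours carried K-rasLSL-G12D/WT and p53Fl/Fl (KP), had been started with Ad5CC10-Cre, an adenovirus whose CC10 promoter drives Cre in club cells of the airway, and were collected at 20 weeks and 1 day. Glut1KO tumours carried Glut1Fl/Fl in addition (KPG1), while the controls were labelled heterozygous fl/wt although the design text calls them Glut1-WT and the methods describe controls of both kinds. All 5 controls were male. Glut1KO replicates 1, 2 and 3 were female and replicates 4 and 5 male, so that genotype and sex overlapped in part. The second number in the deposited names was shared by control replicates 1, 2 and 5, by control replicates 3 and 4, and by Glut1KO replicates 4 and 5. No label says whether it marks a mouse or whether libraries came from separate mice, so the spread between them may be partly technical. The first number in those names was lower in every Glut1KO library than in every control. Within Glut1KO it was lower in the female than in the male libraries. No label says what this first number marks, so group and this order cannot be told apart.

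Library totals (M, mega) lay between 35.3 and 49.8 M counts, with means of 42.7 ± 4.0 M in controls and 40.9 ± 3.8 M in Glut1KO (SD, n = 5 each). Levels are counts per M reads after TMM scaling (CPM). Slc2a1, the gene of Glut1, had 118, 86.7, 92.6, 103 and 73.2 CPM in control replicates 1 to 5. It had 60.3, 42.5 and 34.6 CPM in the female libraries labelled Glut1KO and 92.4 and 103 CPM in the male ones. The male values lay inside the control range, so "labelled Glut1KO" or Glut1KO stands for the label throughout. The log2 fold change of Slc2a1 was -0.62 (SE 0.29) and did not pass the test (limma, adjusted p = 0.658). Counts per gene do not tell a whole transcript from a transcript without the floxed exons. The epithelial list of 6 genes (Epcam, Cdh1, Krt8, Krt18, Krt19, Cldn4) summed to between 3743 and 5285 CPM in controls and between 2771 and 7212 CPM in Glut1KO, so epithelial transcripts were present in all 10 libraries.

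RefSeq promoter windows on GRCm38.p6, from 250 bases before to 50 bases after a start site, were found for 7 of the 10 genes: Egr2, Nr4a1, Ier3, Ier5, Gadd45a, Gadd45b and Gadd45g. Shown are the parts of 5 windows that lie before the start site and outside annotated exons, chosen because they hold the matches described next. Capitals mark each match to a searched motif on either strand that ends before the start site. The Egr2 stretch lies at chr10:67537619-67537868 on the plus strand, the Nr4a1 stretch at chr15:101266596-101266845 on the plus strand and the Ier3 stretch at chr17:35821463-35821683 on the plus strand. The Ier5 stretch lies at chr1:155099637-155099886 on the minus strand and the Gadd45b stretch at chr10:80929841-80930072 on the plus strand.
Egr2: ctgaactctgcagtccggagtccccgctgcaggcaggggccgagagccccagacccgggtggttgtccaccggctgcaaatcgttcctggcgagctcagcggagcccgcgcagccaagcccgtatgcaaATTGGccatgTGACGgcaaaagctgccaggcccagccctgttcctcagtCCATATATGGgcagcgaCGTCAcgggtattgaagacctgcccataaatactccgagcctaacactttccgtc
Nr4a1: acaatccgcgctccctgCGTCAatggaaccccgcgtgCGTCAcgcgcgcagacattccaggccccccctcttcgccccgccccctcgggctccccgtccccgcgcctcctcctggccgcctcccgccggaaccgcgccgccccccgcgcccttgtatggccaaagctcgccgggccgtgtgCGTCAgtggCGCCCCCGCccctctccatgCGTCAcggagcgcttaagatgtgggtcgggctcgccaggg
Ier3: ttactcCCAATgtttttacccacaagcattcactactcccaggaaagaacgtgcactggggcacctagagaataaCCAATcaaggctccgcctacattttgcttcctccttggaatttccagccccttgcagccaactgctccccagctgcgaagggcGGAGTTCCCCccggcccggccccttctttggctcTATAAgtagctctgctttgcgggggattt
Ier5: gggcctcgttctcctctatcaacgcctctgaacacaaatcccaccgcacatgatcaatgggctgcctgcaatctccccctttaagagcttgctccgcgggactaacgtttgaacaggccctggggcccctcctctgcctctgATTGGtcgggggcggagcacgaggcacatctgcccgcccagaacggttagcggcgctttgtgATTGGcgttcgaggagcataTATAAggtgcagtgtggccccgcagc
Gadd45b: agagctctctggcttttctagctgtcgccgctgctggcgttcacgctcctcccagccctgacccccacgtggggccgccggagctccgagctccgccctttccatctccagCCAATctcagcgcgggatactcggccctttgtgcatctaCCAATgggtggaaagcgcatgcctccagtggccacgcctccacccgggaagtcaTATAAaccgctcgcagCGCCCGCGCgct

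The CArG box, the binding element of serum response factor, was matched in Egr2, with CCATATATGG at bases -72 to -63 before start site 3 of 5, the stretch shown. It was matched in 1 of the 7 genes and in 1.81% of 27025 genes with a window. The full cAMP response element TGACGTCA was matched in 0 of 7 genes (2.03% of all genes). Its core TGACG, which also lies within the full element, was matched in Egr2 and Nr4a1 (23.0% of all genes), and Nr4a1 held 4 copies between bases -233 and -36. The EGR element GCGNGGGCG, which the Egr proteins bind, was matched in Nr4a1 at bases -60 to -52 and in Gadd45b at bases -30 to -22 (6.27% of all genes). The kappaB element of NF-kB was matched in Ier3 at bases -92 to -83 and in Nr4a1 across the start site (5.14% of all genes). AP-1 (TGANTCA, 8.97% of all genes) and heat shock (GAANNTTC, 9.04% of all genes) elements were matched in 0 of 7 genes each. Of motifs added after the sequences had been seen, TATAA was matched in 5 of 7 genes (Egr2, Ier3, Ier5, Gadd45b, Gadd45g; 28.0% of all genes) and CCAAT in 6 of 7 (all but Nr4a1; 41.1% of all genes). The Egr2 match to TATAA lay before start site 5, outside the stretch shown. In Ier5 and Gadd45g the TATAA lay at bases -26 to -22 and -27 to -23. In Gadd45b it lay at bases -46 to -42 and in Ier3 at bases -58 to -54. Egr2 had overlapping matches at bases -12 to -8 and -11 to -7. These are matches of letters over both strands, and genes with several windows, such as Egr2 with 5, had more chances of a match.

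Levels between genes were compared per length, as CPM per kb of annotated exon. In controls Egr1 stood highest at 333 ± 47.3 CPM per kb (SD, n = 5), in the 99.6th percentile of 13858 protein-coding genes tested. Ier3 followed at 121 ± 40.0 CPM per kb and Ier2 at 85.5 ± 10.01 CPM per kb, and the ranges of these neighbours overlapped. Nr4a1 (40.8 ± 8.26), Gadd45g (40.6 ± 13.4), Gadd45a (34.7 ± 6.19) and Gadd45b (32.5 ± 1.68 CPM per kb) formed a block in which each neighbour overlapped the next. Ier5 stood below them by mean at 27.2 ± 1.88 CPM per kb, and its range overlapped those of Nr4a1 and Gadd45g but not of Gadd45a or Gadd45b. Egr2 followed at 8.12 ± 2.95 CPM per kb. Egr3 was lowest at 0.453 ± 0.210 CPM per kb, in the 12.0th percentile, on 34 to 128 counts per control library. In Glut1KO the order changed in 2 places, with Ier2 (72.8 ± 10.4 CPM per kb) above Ier3 (67.3 ± 9.41 CPM per kb) and Ier5 above Gadd45b, and in both of these pairs the ranges overlapped. Egr1 alone took 68.2% of the summed CPM of the 10 genes in controls. The 10 genes took from 0.190% to 0.271% of a control library and from 0.130% to 0.232% of a Glut1KO library, so the groups overlapped on this sum.

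**Figure D1:**
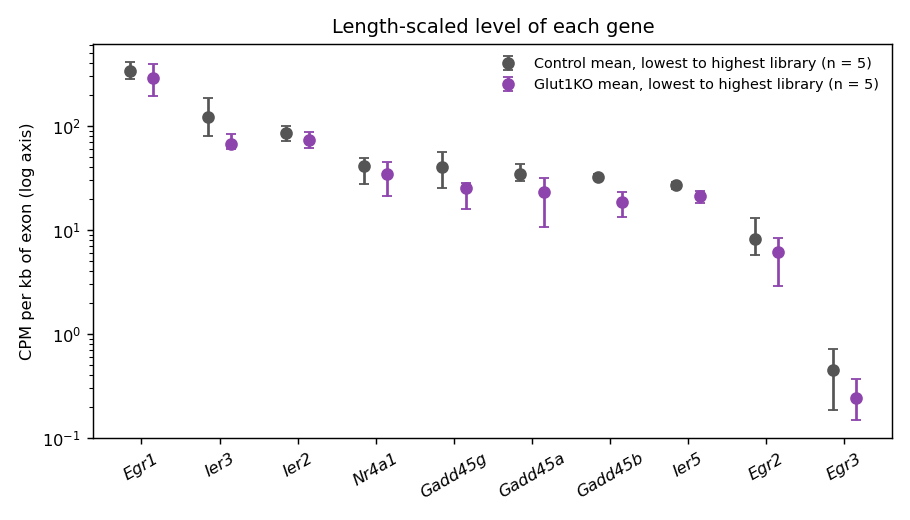
Length-scaled level of each of the 10 genes, in CPM per kb of exon on a log axis, as the mean (point) and the lowest to highest library (bars) of 5 Control and 5 Glut1KO libraries. Levels run from 333 CPM per kb for Egr1 to 0.453 CPM per kb for Egr3 in controls.

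Every one of the 10 genes had a lower mean in the libraries labelled Glut1KO than in controls, from 86.3% of the control mean for Egr1 to 53.2% for Egr3. Log2 fold changes ran from -0.82 (Gadd45b and Egr3) to -0.24 (Ier2), with a median of -0.54. The median over all 15922 genes tested was -0.005, and 50.7% of them were lower. In Ier5 and Gadd45b all 5 Glut1KO libraries lay below all 5 controls. Over all genes tested such complete separation occurred in 1.06% toward lower and in 0.798% toward higher values in Glut1KO. As the genes were chosen on these values, nothing is read from that count. With limma, 0 genes of 15922 were called higher (0%) and 0 lower (0%) in Glut1KO at an adjusted p under 0.05. At an unadjusted p under 0.05 limma gave 583 higher and 640 lower genes. At an adjusted p under 0.05 the quasi-likelihood test of edgeR called 0 genes (1409 unadjusted), and DESeq2 called 110 higher and 105 lower. In such bulk fractions fewer cells of a type and less RNA per cell cannot be told apart.

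**Figure D2:**
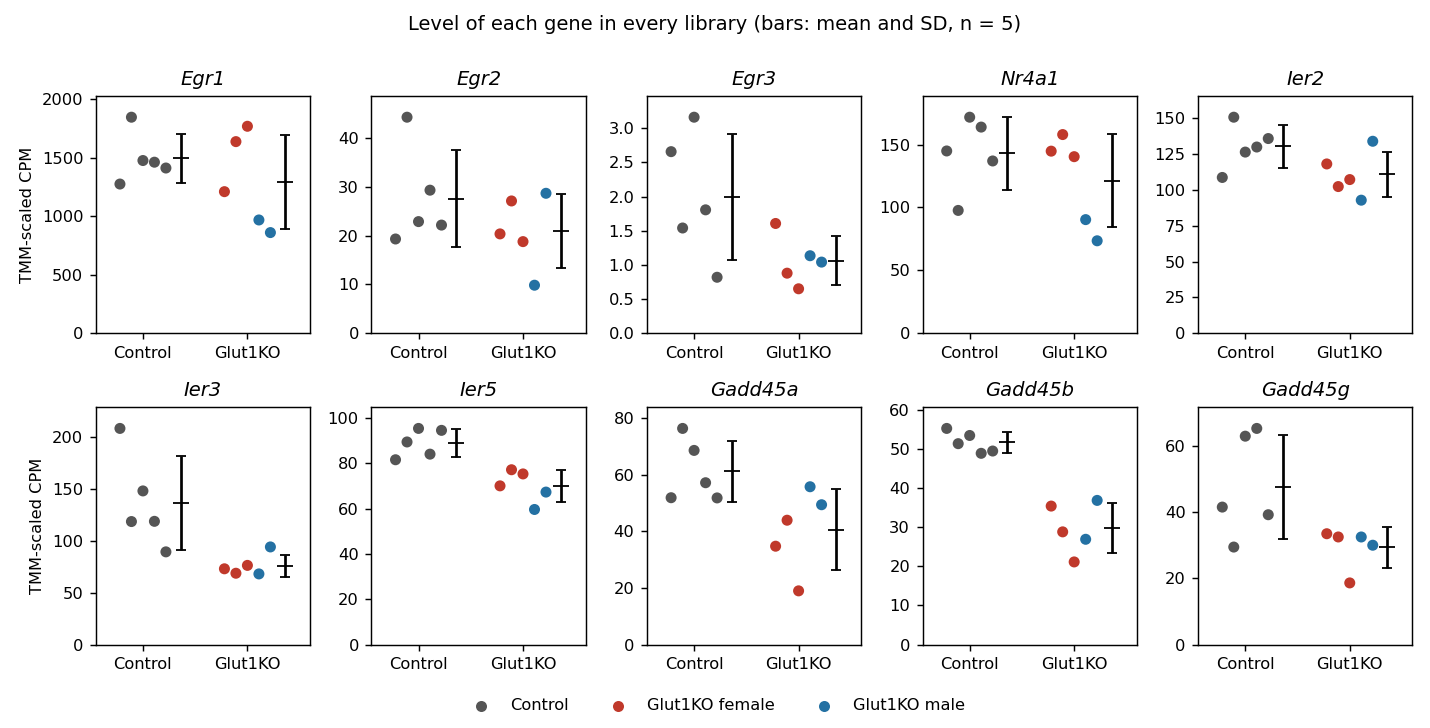
Level of each gene in TMM-scaled CPM in the 5 Control and 5 Glut1KO libraries, with the mean and SD of each group as bars and female Glut1KO libraries in red, male in blue. Ier5 and Gadd45b are the genes in which no Glut1KO library reaches the lowest control.

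The EGR proteins are zinc-finger activators that bind GC-rich elements and carry immediate signals into later gene programmes. Egr1 (ENSMUSG00000038418, chr18:34859823-34864984, plus strand, GRCm38) is the most widely induced of them. It had 1275, 1846, 1476, 1462 and 1412 CPM in control replicates 1 to 5 and 1210, 1638, 1769, 968 and 860 CPM in Glut1KO replicates 1 to 5. The groups overlapped, with 3 Glut1KO libraries (replicates 1, 4 and 5) under the lowest control and the other two among the 3 highest of all 10. Its log2 fold change was -0.26 (SE 0.21), and -0.17 and -0.12 without Glut1KO replicate 4 or 5. With sex as a covariate, or with male libraries only, it was -0.70. With female Glut1KO libraries against all controls, a setting added after seeing the data, it was 0.04.

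Egr2 (chr10:67535475-67542188, plus strand), best known from myelinating glia and lymphocytes, is induced by the same signals at a lower level. It had 19.3, 44.3, 22.9, 29.3 and 22.2 CPM in controls and 20.4, 27.1, 18.8, 9.85 and 28.7 CPM in Glut1KO. Control replicate 2 was the highest and Glut1KO replicate 4 the lowest of the 10, and the rest of the values were interleaved. Its log2 fold change was -0.41 (SE 0.30), and it was -0.20 without that control and -0.19 without that Glut1KO library.

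Egr3 (chr14:70077203-70082614, plus strand), a family member studied in muscle spindles and lymphocytes, had 2.66, 1.54, 3.16, 1.81 and 0.820 CPM in controls and 1.61, 0.880, 0.651, 1.13 and 1.04 CPM in Glut1KO. The groups overlapped, since control replicate 5 lay below 4 of the 5 Glut1KO libraries. Its log2 fold change of -0.82 had the widest error of the 10 (SE 0.40), at the lowest counts.

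Nr4a1 (ENSMUSG00000023034, chr15:101254269-101274795, plus strand), also called Nur77, is a nuclear receptor without a known classical ligand whose activity follows its rapid induction. It had 145, 97.7, 172, 164 and 137 CPM in controls and 145, 158, 140, 90.4 and 73.5 CPM in Glut1KO. Glut1KO replicates 4 and 5 lay below all controls, whereas the 3 female libraries were inside the control range. Its log2 fold change was -0.27 (SE 0.23), and -0.18 and -0.10 without Glut1KO replicate 4 or 5. It moved to -0.79 with sex as a covariate or with male libraries only. With female Glut1KO libraries against all controls, the setting added after seeing the data, it was 0.08.

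Among the IER genes, Ier2 (chr8:84661331-84662852, minus strand) encodes a small nuclear protein induced by growth factors. It had 109, 151, 126, 130 and 136 CPM in controls and 118, 102, 107, 92.8 and 134 CPM in Glut1KO. Glut1KO replicates 2, 3 and 4 lay below the lowest control and the other two within the control range. The log2 fold change of Ier2 was -0.24 (SE 0.13), the smallest in size of the 10.

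Ier3 (ENSMUSG00000003541, chr17:35821684-35822923, plus strand), also called Iex-1, is a stress-inducible regulator of cell survival and a target of NF-kB. It had 209, 119, 148, 119 and 89.4 CPM in controls and 73.1, 68.8, 76.3, 68.1 and 94.2 CPM in Glut1KO. All but Glut1KO replicate 5 lay below the lowest control, which was replicate 5. The mean went from 137 ± 45.2 to 76.1 ± 10.6 CPM (SD, n = 5 each), or 55.7% of the control level, and the log2 fold change was -0.80 (SE 0.20).

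Ier5 (ENSMUSG00000056708, chr1:155096361-155099636, minus strand) encodes a nuclear protein tied to the activation of heat shock factor 1. It had 81.6, 89.5, 95.5, 84.1 and 94.6 CPM in controls and 70.1, 77.2, 75.4, 59.7 and 67.3 CPM in Glut1KO. The groups did not overlap, and the gap between the lowest control (81.6 CPM) and the highest Glut1KO library (77.2 CPM) was small. When counts were scaled by library totals instead of TMM, the groups did overlap. The difference was moderate at 78.5% of the control mean, with a log2 fold change of -0.35 and the smallest error of the 10 (SE 0.10). Its coefficient of variation was 6.92% in controls and 9.98% in Glut1KO.

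GADD45 proteins are small acidic stress sensors that bind cell cycle and kinase partners such as PCNA, CDK1 and MAP3K4 and take part in DNA repair and demethylation. Gadd45a (ENSMUSG00000036390, chr6:67035096-67037457, minus strand), the family member known as a p53 target, had 51.9, 76.4, 68.6, 57.2 and 51.8 CPM in controls and 34.8, 44.0, 19.0, 55.8 and 49.4 CPM in Glut1KO. Glut1KO replicate 4 lay inside the control range and the other 4 below it, with replicate 3 lowest. The log2 fold change was -0.68 (SE 0.26), and -0.42 without replicate 3. It moved to -0.21 with sex as a covariate or with male libraries only. With female Glut1KO libraries against all controls, the setting added after seeing the data, it was -0.98. Gadd45a shares part of its locus with E230016M11Rik on the opposite strand, which held 39 to 140 counts per library against 845 to 4117 for Gadd45a. The strand setting of the counting was not given in the sources used here.

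Gadd45b (ENSMUSG00000015312, chr10:80930073-80932204, plus strand), induced by NF-kB and TGF-beta signals, had 55.2, 51.3, 53.4, 48.8 and 49.4 CPM in controls. It had 35.3, 28.8, 21.1, 26.9 and 36.8 CPM in Glut1KO. The groups did not overlap, as the highest Glut1KO library (36.8 CPM) lay below the lowest control (48.8 CPM). Its mean went from 51.6 ± 2.67 to 29.8 ± 6.43 CPM (SD, n = 5 each), or 57.7% of the control level, and the log2 fold change was -0.82 (SE 0.15). Gadd45b had the lowest coefficient of variation of the 10 in controls, 5.18%, against 21.6% in Glut1KO.

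Gadd45g (ENSMUSG00000021453, chr13:51846678-51848468, plus strand), the cytokine-responsive member, had 41.4, 29.4, 62.8, 65.2 and 39.1 CPM in controls and 33.4, 32.4, 18.6, 32.4 and 29.9 CPM in Glut1KO. The groups overlapped because control replicate 2 (29.4 CPM) lay below 4 Glut1KO libraries. The log2 fold change was -0.66 (SE 0.25). Control replicates 3 and 4, which share a name number, held the 2 highest values of all 10 libraries. Without both of them the log2 fold change of Gadd45g was -0.33, an alternative chosen after seeing the data.

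Across the Glut1KO libraries, replicates 1 to 5 had 10, 7, 9, 10 and 8 of the 10 genes below the control median. Counted as genes below every control, Glut1KO replicates 1 to 5 had 5, 5, 8, 7 and 5 of the 10. Shares over all genes were not computed for either count. As the genes were chosen on these values, nothing is read from these counts. Replicate 3 had the lowest value of all libraries for 4 genes (Egr3, Gadd45a, Gadd45b and Gadd45g) and replicate 4 for another 4 (Egr2, Ier2, Ier3 and Ier5), while replicate 5 was lowest for Egr1 and Nr4a1. Over the 45 pairs of genes the median Pearson r of log2 CPM across the 10 libraries was 0.46. After the mean of each group was subtracted the median r was -0.01, with 22 pairs above and 23 below 0. The closest pairs were then Egr2 with Ier2 (r = 0.76) and Egr1 with Ier5 (r = 0.70), and the most opposed was Egr1 with Gadd45b (r = -0.62). These values are descriptions over 10 libraries that share scaling and, in part, name numbers.

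**Figure D3:**
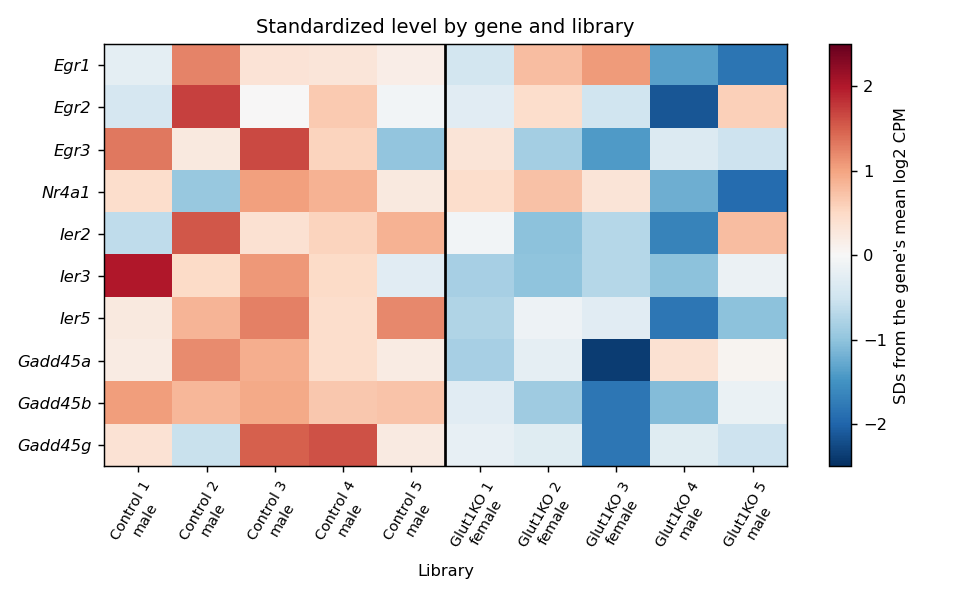
Standardized log2 CPM of each gene (rows) in each library (columns), in SDs from the mean of that gene over the 10 libraries, with a line between Control and Glut1KO. Low values of Egr1 and Nr4a1 fall in Glut1KO replicates 4 and 5, and low values of the 3 GADD45 genes in replicate 3.

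Female and male Glut1KO libraries were compared because sex was a label inside the Glut1KO group and this contrast did not serve to choose the genes. Egr1 averaged 1539 ± 292 CPM in the 3 female libraries (SD) and 968 and 860 CPM in the 2 male ones, and all female values were higher. The log2 difference of Egr1, female minus male, was 0.73 (SE 0.20; 95% interval 0.29 to 1.17) which missed limma's adjusted threshold (adjusted p = 0.133). Nr4a1 had the same pattern, with 148 ± 9.15 CPM in female libraries and 90.4 and 73.5 CPM in male ones, a log2 difference of 0.86 (SE 0.23; 95% interval 0.35 to 1.36) and a limma adjusted p of 0.129. Gadd45a ran the other way, at 34.8, 44.0 and 19.0 CPM in female libraries and 55.8 and 49.4 CPM in male ones. Its log2 difference was -0.78 (SE 0.32; 95% interval -1.48 to -0.07; limma, adjusted p = 0.235). Ier5 differed by 0.22 (SE 0.13; 95% interval -0.07 to 0.51; limma, adjusted p = 0.367). In the other six genes log2 differences lay between -0.20 and 0.30, with limma adjusted p-values from 0.640 to 0.935.

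Of the 10 genes, 0 passed limma's adjusted threshold between female and male Glut1KO libraries, and 3 (Egr1, Nr4a1 and Gadd45a) had an unadjusted p under 0.05. The quasi-likelihood test of edgeR called 0 of the 10, where it called 0.0188% of all genes higher and 0.0565% lower in female libraries. DESeq2 called 2 of the 10 higher, Egr1 and Nr4a1, where it called 3.34% of all genes higher and 4.18% lower. Over all genes limma called 2 higher (0.0126%) and 6 lower (0.0377%) in female libraries, with 1382 and 1575 at an unadjusted p under 0.05. The 8 called genes, named after their values were seen, were Xist and Map3k1, which were higher in female libraries, and Kdm5d, Eif2s3y, Uty, Ddx3y, Stom and Lpcat4, which were lower. Xist and the 4 Y-linked genes followed the sex labels. Among immediate-early genes outside the 10, the difference of Dusp1 was 0.82 (SE 0.12; limma, adjusted p = 0.0717), Fos 0.77 (adjusted p = 0.137), Jun 0.57 (adjusted p = 0.189) and Atf3 0.33 (adjusted p = 0.446) on the log2 scale, female minus male. The 40 other genes of the class, described as a set below, summed to between 6513 and 7093 CPM in female and between 5074 and 5384 CPM in male libraries. By fitted value 28 of the 40 were higher in female libraries, with a median log2 difference of 0.26. The female libraries also had the low Slc2a1 values, and the 2 male libraries share a name number. The first number in the deposited names also separated female from male libraries. Sex, Slc2a1 level and both of these numbers cannot be told apart here.

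Each sex of the Glut1KO libraries was also set against the controls, as a description by differences of mean log2 CPM. Egr1 stood at 0.03 in female and -0.70 in male libraries relative to controls, and Nr4a1 at 0.07 and -0.78. Gadd45a stood at -0.98 in female and -0.20 in male libraries. Gadd45b (-0.89 and -0.71), Ier3 (-0.85 and -0.71), Egr3 (-0.88 and -0.73), Gadd45g (-0.74 and -0.55), Ier2 (-0.25 and -0.22), Egr2 (-0.27 and -0.65) and Ier5 (-0.26 and -0.49) were lower in both. The 95% intervals of the female minus male difference were wide, as from -1.56 to 1.23 for Egr3 and from -0.69 to 0.30 for Gadd45b. The medians over the 10 genes were -0.51 for female and -0.67 for male libraries, and 8 and 10 of the genes were below controls. All values share the same 5 controls.

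**Figure D4:**
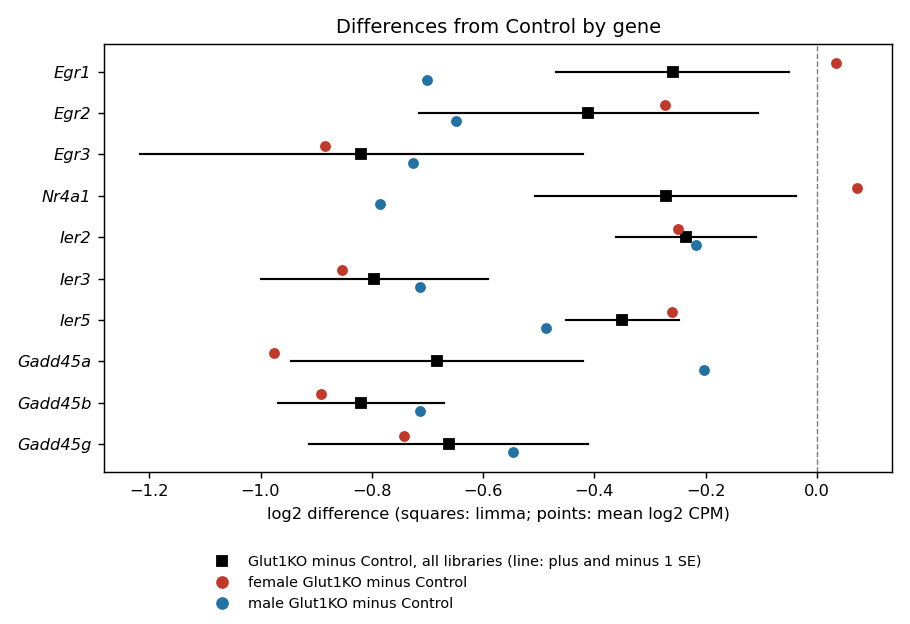
Log2 difference from Control for each gene, where black squares with bars of 1 SE are limma's log2 fold changes of all Glut1KO libraries and red (female) and blue (male) points are differences of mean log2 CPM without an error. Red points of Egr1 and Nr4a1 lie at 0.03 and 0.07 and their blue points at -0.70 and -0.78.

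Marker lists of other cell types were read by the fitted values of their genes, of which 0 passed limma's adjusted threshold in either contrast. Between female and male Glut1KO libraries, 5 of 6 epithelial markers were lower in female libraries by fitted value (median log2 difference -1.10), and the list summed to between 2771 and 3835 CPM in female and between 4986 and 7212 CPM in male libraries. All 10 endothelial markers were higher in female libraries (median 0.81; 303 to 627 CPM summed against 231 to 353 CPM), as were all 13 leukocyte markers tested (median 0.36) and all 7 ciliated cell markers tested (median 1.95). Higher in female libraries were also 5 of 6 alveolar type 1 markers (median 0.83) and 6 of 7 alveolar type 2 markers (median 0.72), while 4 of 6 club cell markers (median 0.31) and 4 of 8 fibroblast markers (median 0.09) were. Heat shock genes summed to between 4230 and 5499 CPM in female and between 6154 and 6456 CPM in male libraries. The part of these lists in the differences of Egr1, Nr4a1 and Gadd45a was not tested.

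Between Glut1KO and Control, 11 of 13 leukocyte markers tested were higher in Glut1KO by fitted value (median log2 fold change 0.88), and 6 of them lay above all controls in all Glut1KO libraries, where 0.798% of all genes did so. Ptprc, which encodes CD45, had 2.30 to 3.26 CPM in controls and 5.05 to 10.1 CPM in Glut1KO, and the leukocyte list summed to 319 to 467 CPM in controls and 343 to 594 CPM in Glut1KO. Most of that sum was Lcp1 (325 CPM in controls, 407 CPM in Glut1KO), which some epithelial tumour cells also express. Endothelial markers were higher in 10 of 10 (median 0.64; sums of 135 to 460 CPM in controls and 231 to 627 CPM in Glut1KO), and ciliated cell markers lower in 7 of 7 tested (median -0.94; sums of 9.97 to 253 CPM in controls and 13.6 to 53.3 CPM in Glut1KO). Fibroblast markers were lower in 6 of 8 (median -0.20), club cell markers in 4 of 6 (median -0.39), and alveolar type 2 markers higher in 6 of 7 (median 0.22), with alveolar type 1 markers at 3 of 6 (median 0.03). Epithelial markers were lower in 5 of 6 (median -0.10), the lowest being Cldn4, named after its value was seen (log2 fold change -1.11; limma, adjusted p = 0.449). None of these markers passed limma's adjusted threshold, and 0 listed markers were at 0 in every library. Their part in the values of the 10 genes was not tested.

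The wider immediate-early class was described through 40 other genes of the class. By fitted value 35 of the 40 were lower and 5 higher in Glut1KO, with a median log2 fold change of -0.51 and a range from -1.28 (Fosl1) to 0.42 (Pim1). With limma 0 of the 40 passed the adjusted threshold (lowest adjusted p 0.230), while 19 were lower and 0 higher at an unadjusted p under 0.05. Over all 15922 genes tested, 640 were lower and 583 higher at that unadjusted threshold. In 11 of the 40 all Glut1KO libraries lay below all controls, where 1.06% of all genes did so. This list was written with results of these libraries known, and its direction is no independent evidence.

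Atf3, a stress-induced bZIP factor, was at 310 ± 73.7 CPM in controls and 160 ± 20.7 CPM in Glut1KO (SD, n = 5 each; log2 fold change -0.94, SE 0.17; limma, adjusted p = 0.230). Jun, a subunit of AP-1, was at 824 ± 153 and 496 ± 106 CPM (log2 fold change -0.74, SE 0.18; limma, adjusted p = 0.363). Dusp1, a phosphatase that turns off MAP kinases, was at 387 ± 28.2 and 275 ± 79.3 CPM (log2 fold change -0.55; limma, adjusted p = 0.556). Atf3, Jun and Dusp1 did not overlap between the groups. Fos, the partner of Jun, did overlap, with 1186 ± 194 CPM in controls and 1007 ± 305 CPM in Glut1KO (log2 fold change -0.28; limma, adjusted p = 0.780).

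**Figure D5:**
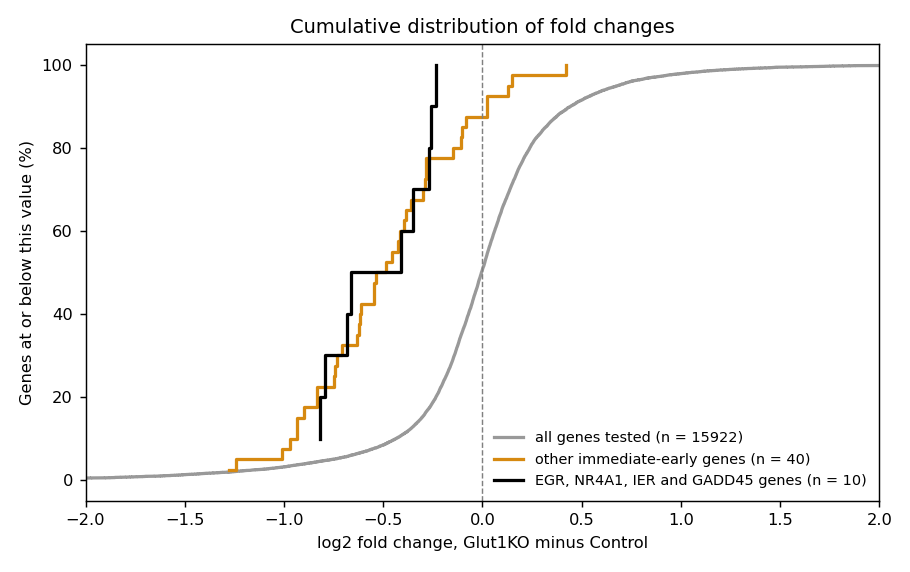
Cumulative distribution of log2 fold changes, Glut1KO minus Control, for all 15922 genes tested (grey), 40 other immediate-early genes (orange) and the 10 genes described (black). The medians are -0.005, -0.51 and -0.54.

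By fitted value 3 of 3 paralogs tested were lower in Glut1KO and 2 of 2 EGR co-repressors slightly higher, with 0 past limma's adjusted threshold (1 at an unadjusted p under 0.05). Nr4a2, the paralog nearest in kind to Nr4a1, had 34.5, 25.7, 32.1, 41.7 and 41.9 CPM in controls and 20.0, 25.8, 17.7, 16.8 and 15.01 CPM in Glut1KO. Its groups overlapped by a single library on each side, with a log2 fold change of -0.88 (SE 0.19; limma, adjusted p = 0.314). Nr4a3 was at 14.8 and 12.3 CPM (log2 fold change -0.34; limma, adjusted p = 0.810) and Ier5l at 2.64 and 2.07 CPM (-0.31; adjusted p = 0.824). Nab1 and Nab2, which bind EGR proteins and repress their targets, were at 94.5 and 101 CPM and at 74.0 and 75.4 CPM in the 2 groups. Egr4 had 0.112 CPM or less in each library and was not tested.

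Fitted differences of the upstream regulators centred near 0. Of 24 kinases and factors of the RAS, ERK, p38, JNK, SRF and CREB routes, 9 were higher and 15 lower in Glut1KO by fitted value (median log2 fold change -0.06), and 0 passed limma's adjusted threshold, with 1 higher and 1 lower at an unadjusted p under 0.05. At that unadjusted threshold 583 of all 15922 genes tested were higher and 640 lower. Srf itself was at 44.7 and 43.5 CPM (log2 fold change -0.05, SE 0.14; limma, adjusted p = 0.945). Of 12 feedback genes of ERK signalling 4 were higher and 8 lower (median -0.10), with 3 lower at an unadjusted p under 0.05 and 0 past the adjusted threshold. Of 13 partners and regulators of GADD45 proteins 6 were higher and 7 lower (median -0.02; 1 lower at an unadjusted p under 0.05). Of 10 heat shock genes 2 were higher and 8 lower (median -0.21; 1 lower at an unadjusted p under 0.05), and their sums overlapped between the groups, at 4735 to 7866 CPM in controls and 4230 to 6456 CPM in Glut1KO.

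Genes most like the 10 in pattern were sought among 11401 genes outside them with a mean of at least 5 CPM. Likeness was Pearson's r over the 10 libraries between log2 CPM and the mean standardized level of the 10 genes, a description in which the group difference that chose the genes takes part. The 5 with the highest r were Pafah1b1 (0.926), Zfp46 (0.926), Sap30bp (0.925), Fbxo30 (0.918) and Serinc1 (0.915). After group means were subtracted the 5 highest were Adamts4 (0.893), Thsd1 (0.883), Notch4 (0.869), Pfas (0.865) and Piezo2 (0.849). These are extremes of 11401 genes over 10 libraries, and the median r of all of them was then -0.04. Pairs of the 10 genes themselves then had a median r of -0.01, so the second list is a description only. The mean standardized level had an r of 0.34 with the total count of the libraries.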

How the data were processed

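RNA was measured in 10 libraries, 5 Control and 5 Glut1KO, grouped by their labels. The authors made TruSeq stranded libraries, trimmed reads with Cutadapt and aligned them with HISAT2 to mm10, and their processing notes name featureCounts 1.4.4; its strand setting and annotation release were not given in the sources used here. The deposited files hold raw counts per Ensembl gene, and the combined table used here equalled the single files in all 10 columns. A deposited table of log2 values was not used.

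Counts were analysed in R 4.3.3. Genes were kept with edgeR 4.0.16 filterByExpr (minimum count 10, minimum total 15; 15922 genes), scaled by TMM and weighted by voom, which adds 0.5 to each count, before limma 3.58.1 was fitted to the group alone, 2-sided, with Benjamini-Hochberg adjustment over all genes and a threshold of 0.05. A second fit with 3 groups gave female minus male Glut1KO. The code was tested on simulated counts. Totals were 35.3 to 49.8 M counts per library. Egr3 rested on 29 to 128 counts and the other 9 genes on 321 or more. The 10 genes and the gene lists were chosen with earlier results of these data known. Genes named outside the 10 were Slc2a1, the paralogs and co-repressors, Srf, Fos, Jun, Atf3, Dusp1 and the 5 genes most alike by each of 2 measures; others were named after their values were seen. Gene positions and exon lengths came from GENCODE M21 (GRCm38), in which 96.6% of the identifiers were found, and sequences from RefSeq. Alternatives were edgeR's quasi-likelihood test, DESeq2 1.42.0, other scalings, no filter or the 20 TPM filter of the study, sex, name numbers, the replicate block and left-out libraries.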

Additional observations from a re-analysis of the deposited data

Results flagged for a closer look

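Of 24 sets of 5 values checked for a sample far from the others (Dixon's ratio above 0.71), 2 had such a sample, where chance gives about 1 in 20. Control replicate 2 held 49.8 M counts while the other controls held 40.1 to 41.4 M (ratio 0.863). That library also had the highest values of Egr1, Egr2, Ier2 and Gadd45a among the 10 libraries and the lowest of Nr4a1 (97.7 CPM) and Gadd45g (29.4 CPM) among controls. Its alveolar type 2 markers summed to 26714 CPM, against 50083 CPM or more in the other controls, and its endothelial markers to 135 CPM, the lowest of the 10 libraries. The part of these in its values was not tested. Gadd45g was at 18.6 CPM in Glut1KO replicate 3 while the other 4 Glut1KO libraries were between 29.9 and 33.4 CPM (ratio 0.766). The same library held the lowest values of Gadd45a (19.0 CPM) and Gadd45b (21.1 CPM) of all 10.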

How the results depend on the processing

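Over the 20 alternatives in which it was recomputed (not the 2 other filters), the median log2 fold change of the 10 genes lay between -0.65 and -0.38 (between -0.61 and -0.40 with single libraries left out). Of 200 recomputed values for single genes 198 were below 0. The 2 above 0 were Egr1 (0.04) and Nr4a1 (0.08) with the female Glut1KO libraries against all controls, a setting added after seeing the data. With sex as a covariate or male libraries only, Egr1 moved to -0.70, Nr4a1 to -0.79, Ier5 to -0.49 and Gadd45a to -0.21. The number of the 10 genes without overlap, 2 as reported, all lower in Glut1KO, was 1 with library totals (Gadd45b; 0.948% of all genes lower without overlap), 4 with male libraries only (8.61%), 4 with female Glut1KO (5.25%), and 2 to 3 with single libraries left out (1.33% to 2.19%). A mean of at least 20 TPM kept 9 of the 10.

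Over all genes, DESeq2 called 110 higher and 105 lower in Glut1KO, sex as a covariate 1 higher and 2 lower, male libraries only 1 higher (Fam25c), and female Glut1KO 4 higher and 5 lower. Leaving out single libraries gave 0 to 1 lower (Cyr61, without control replicate 3) and 0 higher. Between female and male Glut1KO, DESeq2 called 531 higher and 665 lower, and RLE scaling and no filter 1 higher each. Leaving out single Glut1KO libraries gave 1 to 3 higher and 4 to 8 lower (1 higher without Glut1KO replicate 4 or 5, where the lone male library is assumed to vary like the others). The replicate block, run for Glut1KO against Control only, called 0 higher and 0 lower. Control and Glut1KO libraries of the same replicate number deviated together with r of 0.04, -0.09, 0.03, 0.20 and -0.13 (replicates 1 to 5). Only control replicate 4 had its same-numbered Glut1KO library as best partner, and pairing was not tested. These r say nothing of libraries that share a name number. A random block for name numbers (correlation 0.07), also run for Glut1KO against Control only, called 0. Depth limits Egr3, at 29 to 128 counts.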
